A study of Caenorhabditis elegans with 6 samples.

Results

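The 10 genes described here encode proteins of moulting and of the apical extracellular matrix in the nematode Caenorhabditis elegans: noah-1, noah-2, fbn-1, let-653, mlt-8, mlt-9, mlt-10, mlt-11, nas-36 and nas-37. They were taken by name, as every probe set whose single gene symbol in the array's platform annotation is one of them. All 10 were measured, on 17 probe sets, out of 17118 genes named on the array. Transcript levels were compared between 3 arrays of an ung-1 mutant and 3 arrays of wild type N2, the standard laboratory strain, each array carrying total RNA of 1 sample that its title calls a biological replicate. Uracil-DNA glycosylase, the product of ung-1, removes uracil from DNA. The labels gave no allele, stage, age, culture condition or treatment for either genotype and no feature shared by both beyond the RNA protocol, and the series' design text calls the worms RNAi mutants although the samples are titled as a mutant. Nothing said how the cultures were separated, so p-values measure only the spread between these samples.

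A nematode larva replaces its cuticle at the end of every larval stage. The epidermis first lays down a temporary apical matrix rich in zona pellucida (ZP) domain proteins, then secretes collagens for the new cuticle, and secreted proteases and their inhibitors act when the old cuticle is loosened and shed. In staged larvae the transcripts of many such genes rise and fall once per moulting cycle, with different genes peaking at different points, and the cycle ends at adulthood. The level of these transcripts in a bulk sample therefore depends on which worms were collected and when, and fewer epidermal cells or larvae cannot be told apart from less RNA per cell.

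The label of the mutant was checked on ung-1 itself, whose probe set gave 54.9, 55.3 and 47.7 on the mutant arrays, against 236, 254 and 296 on the N2 arrays. The values are intensities in arbitrary units, with array medians of 152.82 to 160.99 for the mutant and 158.32 to 167.85 for N2. Precision was limited by the number of arrays, since an exact permutation test of 3 against 3 reaches 0.1 at best. Among marker genes of tissues and stages, 5 yolk protein genes summed to between 28294 and 79280 on mutant arrays and to between 62339 and 73753 on N2 arrays, the lowest being mutant replicate 3. The 14 oocyte and eggshell genes summed to 46818 to 78921 in the mutant, lowest again on replicate 3, and to 62873 to 86452 in N2. The 22 major sperm protein genes summed to 24770 to 74730 in the mutant and to 26449 to 61566 in N2, with mutant replicate 3 and N2 replicate 1 low. No defining marker in these 3 lists was at 0, which without detection calls does not show that each was expressed.

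Most of the 10 genes differed more between arrays of one genotype than between the genotypes. By the probe set with the highest mean of each gene, replicate 3 had the highest level of 7 of the 10 genes in both genotypes, and replicate 2 had the lowest level of 8 in both. Among the 7, nas-36 was nearly level in the mutant, at 141.67 on replicate 3 and 141.25 on replicate 1. Over all 22548 probe sets, 8.39% had replicate 3 highest in both genotypes, and 8.39% had replicate 2 lowest in both. These replicate numbers were singled out after the values were seen, so the counts are a description with no test. Relative to each gene's mean over the 6 arrays, on the scale log2(intensity + 16), the median gene stood at -0.05, -0.72 and 1.04 in the mutant (replicates 1, 2 and 3) and at -0.29, -0.68 and 0.74 in N2. The medians of all probe sets on the same arrays lay between -0.06 and 0.06. The genes nas-37 and let-653 did not follow the common order, and mlt-10 followed it in N2 but not in the mutant.

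**Figure D1:**
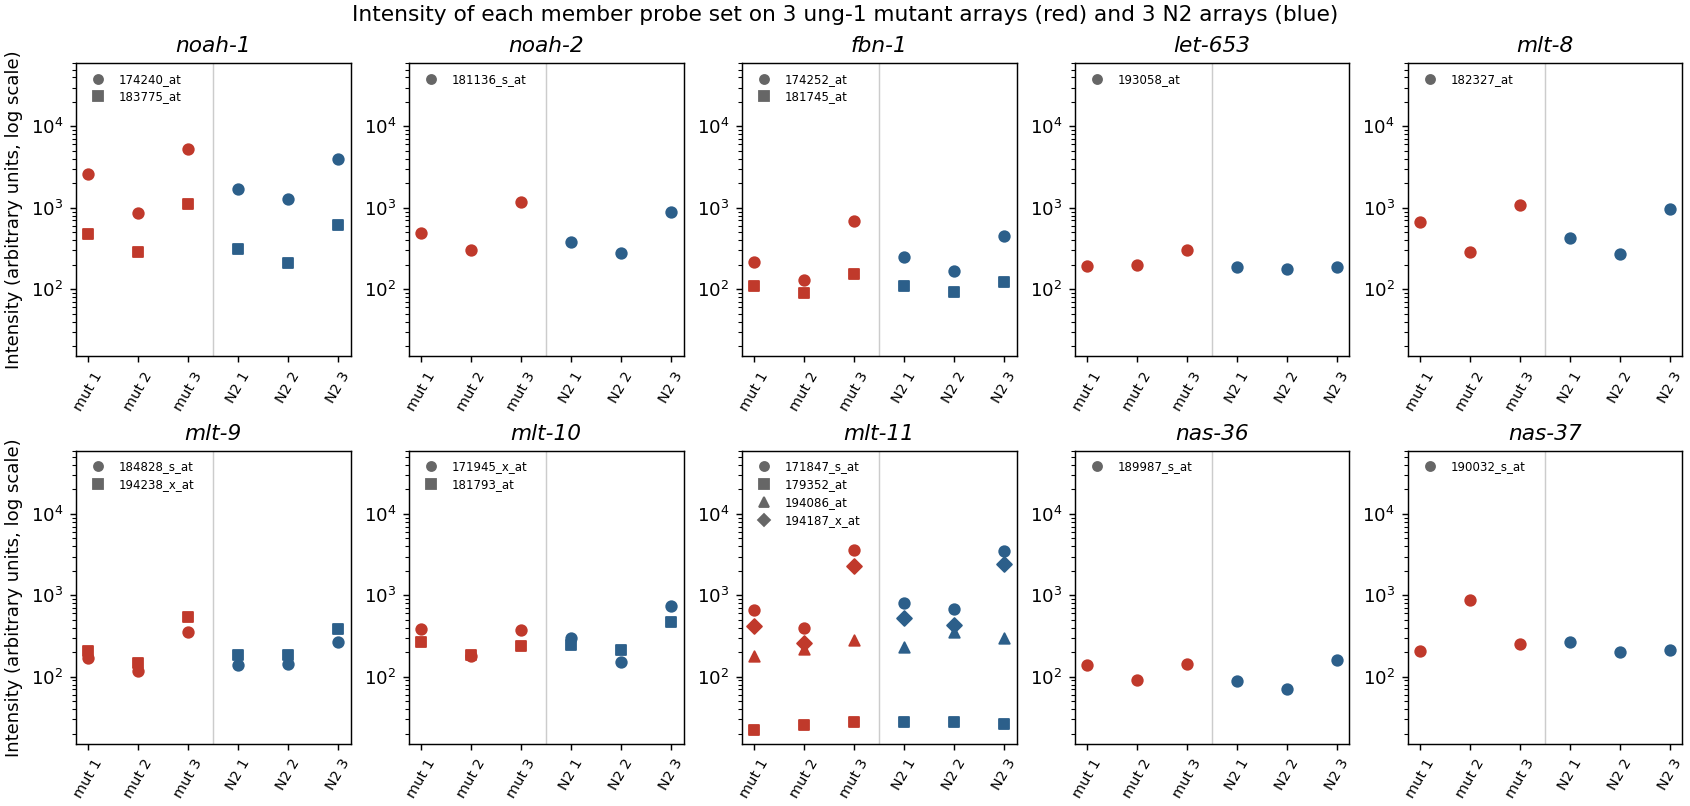
Intensity of each of the 17 probe sets on a log axis, in 1 panel per gene, with 3 ung-1 mutant arrays in red on the left and 3 N2 arrays in blue on the right. On every probe set of noah-1, noah-2, fbn-1, mlt-8 and mlt-9, and on the 2 bright ones of mlt-11 but not its other 2, replicate 3 lies above the other arrays of its genotype in both genotypes, while nas-37 is high on mutant replicate 2 alone.

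Among the genes of the apical matrix, noah-1 and noah-2 encode ZP domain proteins of the epidermal surface that belong to the temporary matrix. The brighter noah-1 probe set, 174240_at, gave 2603, 851 and 5214.5 on mutant replicates 1, 2 and 3, against 1681, 1296 and 3943 on those of N2. Its highest array was thus 6.13 times its lowest in the mutant and 3.04 times in N2, and the genotypes overlapped. The second noah-1 probe set, 183775_at, gave 483, 283 and 1127 in the mutant, against 312, 207 and 623 in N2, with the same order of arrays within each genotype. The mean difference was 0.14 for 174240_at (SE 0.69, log2 mutant minus N2 from limma) and 0.62 for 183775_at (SE 0.56). For noah-2 the values were 497, 301 and 1188 in the mutant, against 376, 276 and 877 in N2, a log2 difference of 0.31 (SE 0.58). The 3 probe sets of the noah genes put the 3 arrays of a genotype in one order, with replicate 3 highest and replicate 2 lowest.

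The gene fbn-1 encodes a fibrillin-related matrix protein with a ZP domain that helps the embryonic epidermis to withstand mechanical strain. Its probe set 174252_at gave 216, 130 and 693 in the mutant, against 246, 167 and 446 in N2. The dimmer probe set 181745_at gave 110, 90.5 and 153 in the mutant, against 109, 92.8 and 124 in N2. Both showed the order of the noah genes, but the highest array was 5.34 times the lowest in the mutant on the first probe set and 1.70 times on the second. The log2 difference between genotypes was 0.04 (SE 0.61) on the first and 0.08 (SE 0.21) on the second, each below its standard error.

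The gene let-653, whose ZP domain protein lines the lumen of the excretory duct and the developing vulva, behaved differently from the other matrix genes. It gave 192, 199 and 304 on the mutant arrays, against 189, 175 and 187 on the N2 arrays, so that in N2 the highest array was only 1.08 times the lowest. All 3 mutant arrays lay above all 3 N2 arrays, though mutant replicate 1 by little, and let-653 was the 1 of 17 probe sets whose genotypes did not overlap. Genotypes were apart in 6.69% of all probe sets, so 1 of 17 is near that background. The log2 difference was 0.28 (SE 0.20, 95% confidence interval -0.19 to 0.75, exact permutation p = 0.1, the smallest that 3 against 3 arrays allow), and it was 0.08 without mutant replicate 3.

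The mlt genes were found in screens for larvae that cannot complete the moult. For mlt-8 the arrays gave 662, 283 and 1080 in the mutant, against 427, 269 and 970 in N2. For mlt-9 probe set 194238_x_at gave 207, 149 and 548 in the mutant, against 187, 186 and 382 in N2, and 184828_s_at gave 171, 118 and 350 in the mutant, against 140, 143 and 269 in N2. In both genes replicate 3 was the highest array of each genotype on every probe set. The log2 difference between genotypes was 0.28 (SE 0.59) for mlt-8 and 0.11 (SE 0.49) and 0.13 (SE 0.41) on the 2 mlt-9 probe sets.

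The gene mlt-10, the founding member of a family of nematode proteins with a shared domain, set the genotypes side by side in another way. Probe set 171945_x_at gave 387, 182 and 370 in the mutant, against 297, 152.01 and 746 in N2. On 181793_at the values were 266, 183 and 239 in the mutant, against 244, 212 and 472 in N2. Replicate 3 was thus the highest N2 array by a wide margin on both probe sets, at 4.91 and 2.22 times the lowest, but in the mutant replicate 1 was highest on both. The mean difference was negative on both, at -0.13 (SE 0.56) and -0.34 (SE 0.31). The 10 measured genes of the mltn series, the relatives of mlt-10, had a median deviation of -0.13 on mutant replicate 3 and of 0.08 on N2 replicate 3. In N2 replicate 3 was the highest array for 4 of them, mltn-4, mltn-7, mltn-8 and mltn-9, and for 0 of the 10 was it highest in both genotypes. Of all probe sets, 12.2%, 8.03% and 8.37% had N2 replicate 3 highest together with mutant replicate 1, 2 or 3. The genes mltn-4, mltn-7 and mltn-8 were dim, with N2 means of 7.01, 55.9 and 34.9. The gene mltn-9 gave 214, 143 and 141.52 in the mutant, against 161, 208 and 275 in N2, with N2 replicate 3 above all other arrays. Of the 10 relatives 1 had a positive and 9 a negative log2 difference between genotypes, where 12520 of all 22548 probe sets were negative. Their median was -0.16, with none past an unadjusted p of 0.05. The one nearest to that threshold, mltn-13, gave 80.6, 77.2 and 62.1 in the mutant, against 93.7, 126 and 85.1 in N2.

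The gene mlt-11 encodes a secreted protein with Kunitz domains, a fold found in inhibitors of serine proteases, and it had the widest range of the 10 genes. Probe set 171847_s_at gave 653, 403 and 3569 in the mutant, against 814, 671 and 3558 in N2. Probe set 194187_x_at gave 419, 257 and 2301 in the mutant, against 528, 438 and 2449 in N2. Replicate 3 stood 8.86 and 8.97 times above the lowest mutant array on these 2 probe sets and 5.30 and 5.59 times above the lowest N2 array, and the 2 replicate 3 arrays differed little from each other. The remaining 2 mlt-11 probe sets did not show this. On 194086_at the values were 182, 220 and 280 in the mutant, against 230, 357 and 302 in N2. On 179352_at, at the 2.4th percentile of mean intensity over all probe sets, they were 22.1, 25.3 and 27.8 in the mutant, against 27.5, 27.9 and 26.01 in N2. The values of this last probe set on mutant replicate 1 and N2 replicate 3 had been deposited as spreadsheet dates and were read back. The part of the transcript that each probe set reads is not given in the sources used.

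The proteases nas-36 and nas-37 are astacin metalloproteases that larvae need to escape from the old cuticle, and their transcripts followed different arrays. The gene nas-36 gave 141, 90.8 and 141.67 in the mutant, against 89.9, 69.8 and 159 in N2. Its order in N2 was that of the matrix genes, while in the mutant replicates 1 and 3 were nearly level and replicate 2 was low. The gene nas-37 gave 209, 883 and 252 in the mutant, against 270, 200 and 216 in N2. Mutant replicate 2, the lowest mutant array for 8 of the 10 genes, was the highest for nas-37, at 4.23 times the lowest mutant array, while the N2 arrays lay within 1.35-fold of each other. The log2 difference of nas-37, 0.64 (SE 0.50, 95% confidence interval -0.55 to 1.84, exact permutation p = 0.6), was the largest of the 17 in size and rested on that array, since it was 0.02 without mutant replicate 2. For nas-36 it was 0.25 (SE 0.30).

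**Figure D2:**
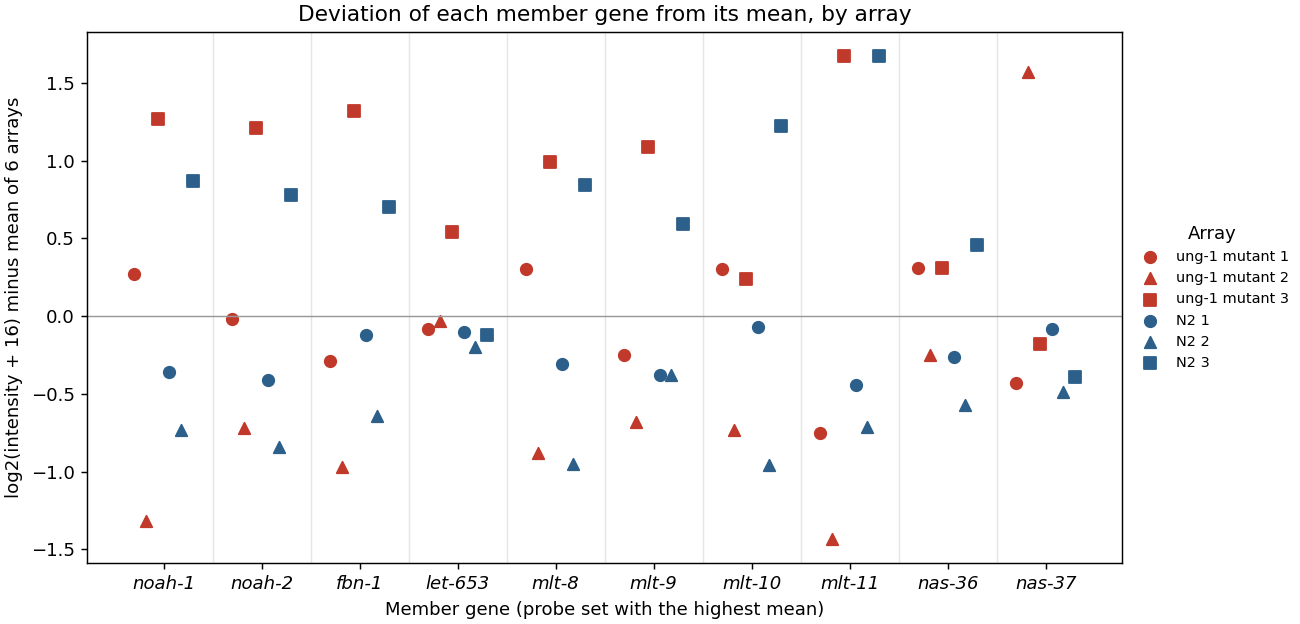
Deviation of each member gene from its own mean over the 6 arrays, on the scale log2(intensity + 16), for the probe set with the highest mean. Red points are ung-1 mutant arrays and blue points N2 arrays, and circles, triangles and squares stand for replicates 1, 2 and 3. Squares lie on top in noah-1, noah-2, fbn-1, mlt-8, mlt-9 and mlt-11 of both genotypes, up to 1.67 for mlt-11, and the red triangle of nas-37 stands at 1.57.

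The spread between arrays of one genotype was larger for these genes than for most probe sets, as it was for several other gene lists. Pooled over both genotypes, the standard deviation of log2(intensity + 16) had a median of 0.89 over the 10 genes, against 0.25 over all probe sets. The median was 1.05 for yolk genes, 0.78 for other apical matrix proteins, 0.77 for genes of epidermal structure and identity, 0.76 for major sperm proteins and 0.67 for furrow collagens. It was 0.25 for other astacin proteases and 0.18 for the mlt-10 relatives, several of which were dim. Among the 10 genes it reached 1.47 for mlt-11, 1.10 for noah-1, 0.96 for fbn-1 and 0.93 for mlt-8. With 1 probe set per gene, 8 of the 10 genes lay above the 90th percentile of all probe sets, which is 0.57, against 10% of all probe sets by construction. Only nas-36 at 0.44 and let-653 at 0.25 lay below it. In the mutant the median gene had its highest array at 3.88 times the lowest, against 1.44 over all probe sets, and in N2 at 2.86 times, against 1.37 over all probe sets.

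**Figure D3:**
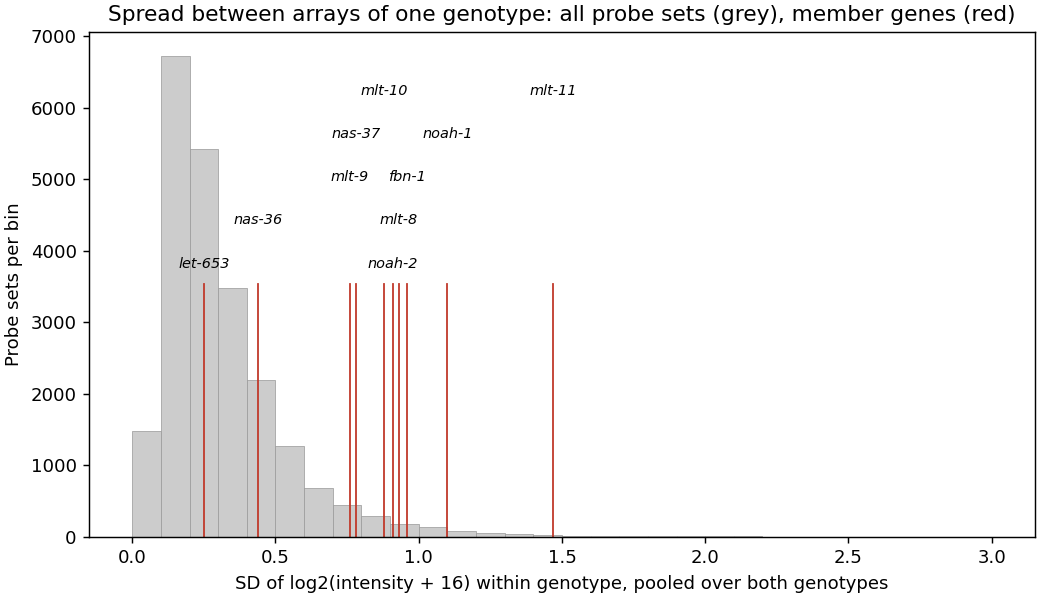
Histogram of the standard deviation of log2(intensity + 16) between arrays of one genotype, pooled over the ung-1 mutant and N2, for all 22548 probe sets in grey (number per bin of 0.1). Red lines mark the 10 member genes, of which all but let-653 and nas-36 lie above 0.57, the 90th percentile.

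Beside this spread no difference between the genotypes was detectable. None of the 17 probe sets passed an adjusted p of 0.05 in limma, a linear model that draws each probe set's variance towards a common value. At that threshold 0% of all 22548 probe sets passed. Even ung-1 did not, at a log2 difference of -2.01 (limma adjusted p = 0.0765), so the threshold was a strict one here. None of the 17 reached an unadjusted p of 0.05 either, against 1.93% of all probe sets. The smallest was 0.154, for mlt-11 on 194086_at. The adjusted p was 0.9995 for each of the 17. By the probe set with the highest mean, 8 genes had a positive and 2 a negative log2 difference, with a median of 0.19, where 44.5% of all probe sets were positive and their median was -0.027. The sign of the median over the 10 genes depended on single arrays: it was -0.24 without mutant replicate 3 and -0.09 without N2 replicate 2, and it was 0.46 without mutant replicate 2 and 0.49 without N2 replicate 3. Without N2 replicate 1 it was 0.09, and with both replicate 3 arrays left out, a setting chosen after seeing the data, it was 0.17. All 17 confidence intervals held 0, and their widths ran between 0.64 and 4.43 log2 units, so that changes of several fold in either direction could not be told from none for mlt-11 and noah-1.

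**Figure D4:**
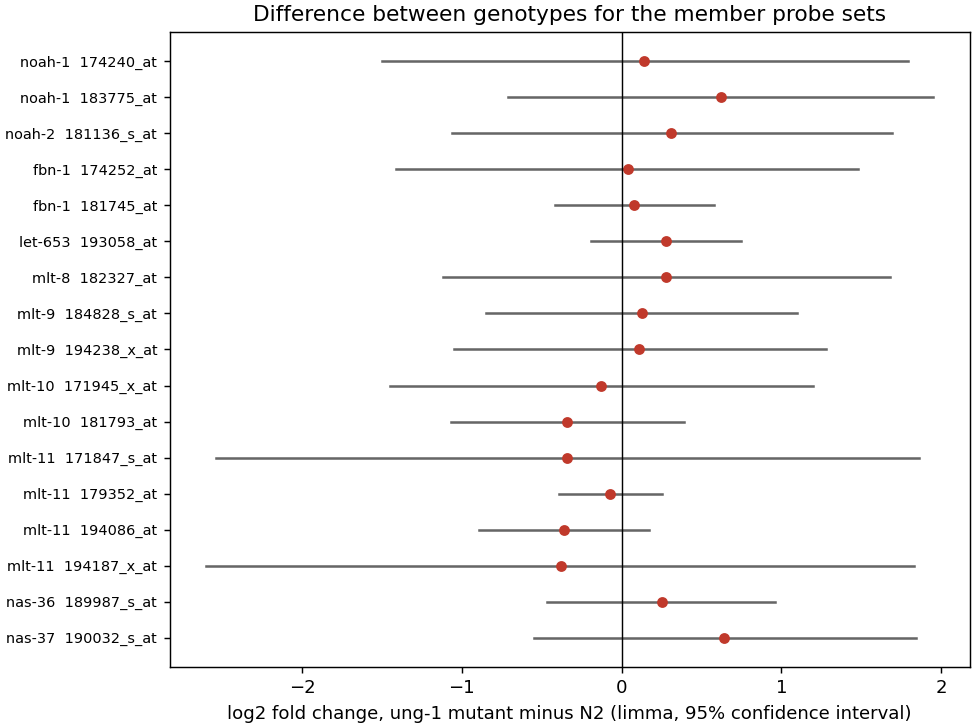
Log2 difference (ung-1 mutant minus N2) of each of the 17 probe sets as a red point, with its 95% confidence interval from limma as a grey line. Every interval crosses 0, and the widest belong to the 2 bright mlt-11 probe sets, which reach -2.54 and -2.60.

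The regulators of the moulting cycle were described from a list of 12 symbols, of which 11 were measured. By count, 5 of the 11 had replicate 3 highest in both genotypes, among them nhr-23, the nuclear receptor related to mammalian ROR that drives many moulting genes. Its brighter probe set gave 757, 499 and 898 in the mutant, against 581, 371 and 1023 in N2, the order of arrays seen in noah-1. A second, dimmer nhr-23 probe set was nearly flat, at 54.1, 52.9 and 52.9 in the mutant, against 54.4, 65.8 and 55.1 in N2. The gene myrf-1, a membrane-bound transcription factor, gave 388, 350 and 1151 in the mutant, against 609, 437 and 1002 in N2. For blmp-1, a zinc finger transcription factor, the values were 665, 580 and 1555 in the mutant, against 808, 1164 and 1414 in N2. Replicate 3 was thus the highest array of each genotype in these 3 genes.

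The other 6 regulators, lin-42, elt-3, bed-3, nhr-25, elt-1 and grh-1, did not have replicate 3 highest in both genotypes. Of these, lin-42, the homologue of the period gene of the circadian clock and part of the timing of moults, gave 206, 257 and 230 in the mutant, against 297, 367 and 378 in N2 on its brighter probe set. All 3 mutant arrays lay below all 3 N2 arrays, with a log2 difference of -0.55 (SE 0.16, limma unadjusted p = 0.0119, adjusted p = 0.9995). The other lin-42 probe set, at 84.1 ± 13.4 in the mutant and 80.3 ± 7.09 in N2 (SD, n = 3 each), had a difference of 0.05. By the brighter probe set, lin-42 was the 1 regulator of 11 with an unadjusted p under 0.05, lower in the mutant. Of all probe sets 1.93% passed that threshold in either direction and 1.24% were lower. Over the list, 5 genes were positive and 6 negative, with a median of -0.05.

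Other proteins of the apical matrix showed the same arrays high. Of 7 measured genes, 6 had replicate 3 highest in both genotypes. The lipocalin gene lpr-3 gave 972, 442 and 2957 in the mutant, against 842, 904 and 2481 in N2. The gene let-4, of a leucine-rich repeat protein of epithelial surfaces, gave 287, 196 and 611 in the mutant, against 218, 157 and 463 in N2. For dex-1, of another matrix protein, the values were 85.0, 93.5 and 572 in the mutant, against 109, 127 and 230 in N2. Replicate 3 was the highest array of each genotype in all 3 genes. The exception was egg-6, with 3003, 1825 and 1290 in the mutant, against 2247, 1554 and 3302 in N2, low on mutant replicate 3.

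Collagens of the cuticle furrows gave a similar picture, with 4 of the 5 measured genes highest on replicate 3 in both genotypes. The gene dpy-7 gave 173, 112 and 352 in the mutant, against 128, 123 and 258 in N2. The furrow collagen gene dpy-2 gave 290, 132 and 391.58 in the mutant, against 199, 168 and 388 in N2. The exception, dpy-9, ran between 140 and 192 on mutant arrays and between 195 and 213 on N2 arrays. In the list of cuticle crosslinking and collagen maturation, 5 of 9 genes had replicate 3 highest in both genotypes. There bli-3, the dual oxidase that crosslinks cuticle proteins, gave 270, 433 and 1071 in the mutant, against 335, 212 and 658 in N2. No gene of these lists reached an unadjusted p of 0.05 between the genotypes.

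Relatives of the proteases and of the ZP proteins were taken as lists of their own. Of 34 other astacin genes, 3 had replicate 3 highest in both genotypes, which is 8.82% beside 8.39% of all probe sets, and their median deviations on the 6 arrays lay between -0.15 and 0.15. Between genotypes 6 were positive and 28 negative, with a median log2 difference of -0.15, where 12520 of all 22548 probe sets were negative, and none had an unadjusted p under 0.05. Of 36 cuticlins and other ZP proteins, 9 had replicate 3 highest in both, or 25%, and their median deviation was 0.32 on mutant replicate 3 and 0.00 on N2 replicate 3. The cuticlin gene cut-2 was the 1 gene of this list to pass an unadjusted p of 0.05 (limma p = 0.0219, adjusted p = 0.9995, exact permutation p = 0.1), where 0.687% of all probe sets were higher at that threshold. It gave 1974, 1762 and 1804 in the mutant, against 856, 760 and 1622 in N2, a log2 difference of 0.85 (SE 0.29). The list of other matrix processing proteases and inhibitors had 0 of 6 genes highest on replicate 3 in both, and that of moulting uptake, trafficking and kinases had 3 of 11.

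Markers of the epidermis, of other tissues and of stage also varied between the arrays, and only partly in the order of the 10 genes. Genes of epidermal structure and identity had a median deviation of -0.44, -0.19 and 0.85 on mutant replicates 1, 2 and 3, and of 0.36, -0.66 and 0.24 on those of N2. Of these 9 genes, 4 had replicate 3 highest in both genotypes, or 44.44%, beside 8.39% of all probe sets. In the yolk, oocyte and eggshell, and major sperm protein lists 0 genes had it so. The 9 epidermal genes summed to 10436 to 20857 in the mutant and to 9645 to 19875 in N2. None was at 0, which without detection calls does not show that each was expressed. The yolk list stood at 0.53, 0.25 and -1.97 in the mutant, against 0.49, 0.21 and 0.08 in N2. In that list vit-5 gave 21698, 20889 and 3609 in the mutant, against 21109, 18870 and 17868 in N2. The yolk genes differed in how far they fell. The highest mutant array was 20.40 times the lowest for vit-1, 6.88 for vit-4 and 6.01 for vit-5. It was only 1.53 times the lowest for vit-2 and 1.30 for vit-6. The probe sets of vit-4 and vit-5 end in _x_at and can match several transcripts. Oocyte and eggshell genes stood at -0.57 on mutant replicate 3 but at 0.36 on N2 replicate 3, and major sperm protein genes at -0.89 and 0.19 on the same 2 arrays. The 2 arrays with high moulting and matrix genes thus differed from each other in their yolk, oocyte and sperm transcripts. The part of stage or tissue makeup in the levels of the 10 genes was not tested.

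**Figure D5:**
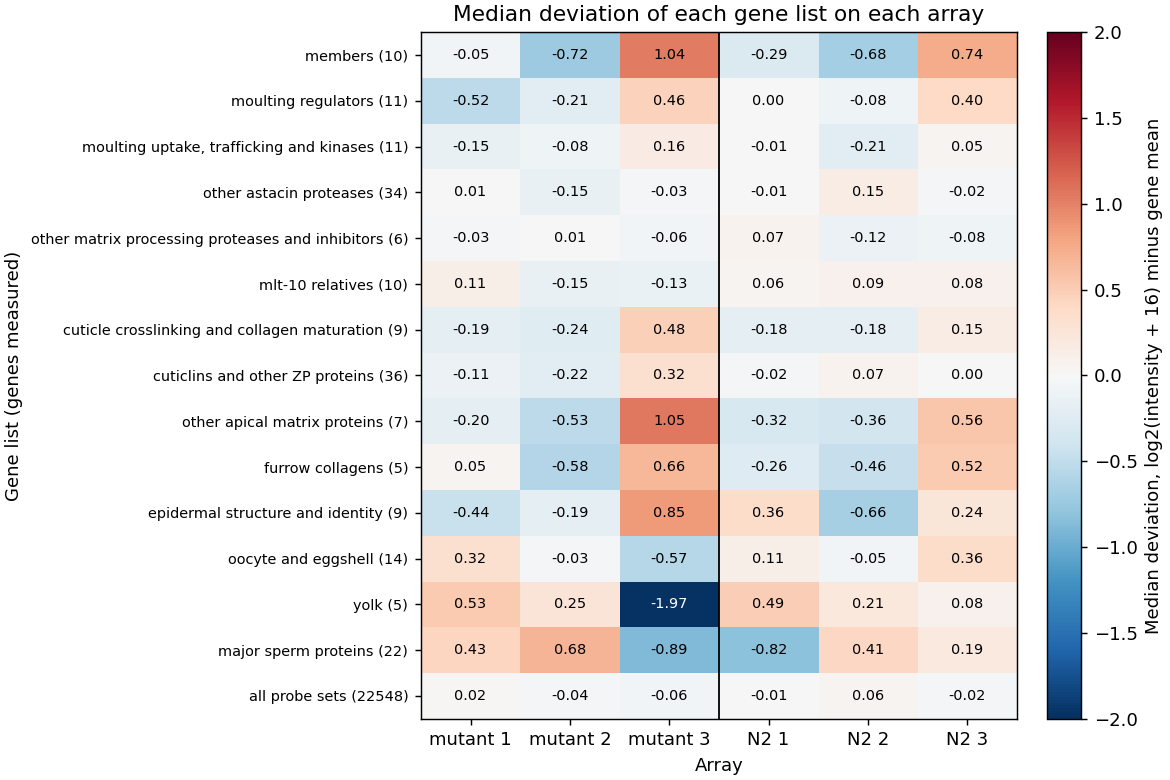
Median deviation of each gene list on each array, as log2(intensity + 16) minus the gene's mean over the 6 arrays, with the number of genes measured in brackets and ung-1 mutant arrays left of N2 arrays. Members, other apical matrix proteins and furrow collagens stand at 0.52 or more on replicate 3 of both genotypes. Moulting regulators (0.46 in the mutant, 0.40 in N2) and genes of epidermal structure and identity (0.85 and 0.24) are also positive there. So are cuticle crosslinking and collagen maturation (0.48 and 0.15) and moulting uptake, trafficking and kinases (0.16 and 0.05). Yolk is at -1.97 on mutant replicate 3 alone.

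RNA integrity was read from control probe sets near the 3' and the 5' end of a transcript. Their ratio for GAPDH was 8.77, 5.01 and 6.08 on mutant replicates 1, 2 and 3, against 11.8, 8.30 and 10.6 on those of N2. For actin it was 4.44, 2.89 and 3.13 in the mutant, against 3.72, 5.23 and 4.63 in N2. For ubiquitin it was 3.97, 3.95 and 4.41 in the mutant, against 4.28, 5.32 and 5.15 in N2. Replicate 3 lay between the other arrays of its genotype in each case except ubiquitin in the mutant, where it was highest.

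The genes whose profile over the 6 arrays was nearest to the mean profile of the 10 genes were taken among 10701 probe sets above the median intensity. Likeness was measured as the root mean square difference of deviations in log2 units, which has a median of 0.66 over these probe sets. A flat profile, with no change between arrays, would stand at 0.57. The nearest were samt-1 and aagr-4 at 0.11, daf-6 and let-4 at 0.12, and dpy-7 and lpr-5 at 0.13. The patched-related gene daf-6, needed for the lumen of sensory organ channels, gave 220, 140 and 458 in the mutant, against 184, 157 and 324 in N2. The gene samt-1 gave 467, 337 and 837 in the mutant, against 338, 304 and 687 in N2. All 6 had replicate 3 highest in both genotypes, which the measure of likeness favours. Of the 10 genes themselves, mlt-9 at 0.18 and noah-2 at 0.20 were closest to their common profile and nas-37 at 1.06 farthest. Next farthest was mlt-11 at 0.70, which had the common order of arrays with a wider range, since the measure also counts differences in range.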

How the data were processed

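Per the labels' protocols, Trizol was used to obtain total RNA of the 6 samples, which was biotin-labelled for Affymetrix C. elegans arrays. The deposited table holds 1 linear intensity per probe set and array. The sources used here do not name its software, background correction or scaling, and no detection calls were used. In the deposited intensity values, 1361 cells are whole numbers equal to spreadsheet dates, and they were read back as the small numbers behind those dates (1.17 to 31.12), 2 of them in 1 member probe set.

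The 77 control probe sets were left out. For the other 22548, limma 3.58.1 (R 4.3.3) was fitted to log2(intensity + 16) (two-sided, Benjamini-Hochberg over all of them), with no further normalization. The offset understates the change of dim probe sets. Exact permutation tests used all 20 regroupings of 3 against 3 arrays. Tables used pandas 2.3.3 and numpy 2.4.6 in Python 3.11.15, and figures used matplotlib 3.10.9. Tested on simulated arrays, the fit found 31 of 100 probe sets with a 2-fold change and 95 of 100 with a 4-fold change. It made 5 false calls. These rates were not split by the spread of the probe sets. The member genes had a median within-genotype standard deviation of 0.89, against 0.25 over all probe sets. The rates therefore do not give the power for the member genes, which was not tested. On the deposited arrays ung-1, at a log2 difference of -2.01, was not called (limma adjusted p = 0.0765).

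Symbols came from the platform annotation, with 0 changed on checking against RefSeq genes of assembly WBcel235. Probe sets ending in _s_at, _x_at or _a_at, 8 of the 17, can match several transcripts. Where 1 value per gene was needed, the probe set with the highest mean was used. The members and lists were chosen with earlier results of these data known. Named were all members, up to 4 genes per list with the smallest p or the list by counts, and the 6 genes nearest to the members' mean profile. Further genes of a list were named after their values were seen, as were the other probe sets of lin-42 and nhr-23. Alternatives were the deposited values, missing dates, offsets of 1 and 50, 2 normalizations, a filter on dim probe sets, array weights, an intensity trend, the replicate number as a block, averaging the probe sets of each gene and leaving out arrays.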

Additional observations from a re-analysis of the deposited data

How the results depend on the processing

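No member probe set passed limma's adjusted p of 0.05 under any of the 17 other fits run, and none reached an unadjusted p of 0.05 except 1 with a replicate block. This was noah-1 on 183775_at, with a log2 difference of 0.62 (limma adjusted p = 0.9996). The labels do not say whether same-numbered arrays were raised or handled together. Over all probe sets the deviations of same-numbered arrays correlated at -0.19, 0.09 and 0.10, and not every array correlated best with its own number. Deviations from a shared mean lean towards negative correlation, so these values cannot show whether arrays were paired, which was not tested. With the block, 323 of all probe sets had an unadjusted p under 0.05, against 435 without it. The median log2 difference over the 10 genes lay between -0.24 and 0.49 when 1 array was left out, and was -0.14 with array weights, 0.22 with quantile normalization, 0.24 with median centring and 0.26 after averaging the probe sets of each gene. The deviations of the median gene on mutant replicates 2 and 3 and on all N2 arrays kept their sign in each of 13 settings, and that on mutant replicate 1 ran between -0.16 and 0.12. Over all probe sets, the 435 with an unadjusted p under 0.05 became 193 without the dim probe sets, 1554 with array weights, 714 and 831 without mutant replicates 1 and 3, 233 without mutant replicate 2, and 234, 232 and 894 without N2 replicates 1, 2 and 3. They became 1287 with both replicate 3 arrays left out. Adjusted calls over all probe sets were 6 with the deposited values and 1 each with array weights and an intensity trend. The deposited values differ from those used here only in the 1361 cells kept as spreadsheet day counts. With those cells set to missing, adjusted calls were 0. The cause of the other shifts was not tested.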

Other observations

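The profile of nas-37, high on mutant replicate 2 alone, was close to that of several genes, 1 of them an intestinal one. Chosen after its values were seen, the probe sets nearest to it by the same root mean square difference were srdh-1 at 0.19, agxt-1 at 0.21, ifb-2 at 0.22, nadk-2 at 0.23, asb-2 at 0.24 and ugt-21 at 0.26. The intestinal intermediate filament gene ifb-2 gave 1149, 3987 and 1267 in the mutant, against 1908, 933 and 1315 in N2. The gene srdh-1 gave 917, 2747 and 1081 in the mutant, against 1175, 1009 and 971 in N2. In both genes mutant replicate 2 was above all other arrays, which the measure of likeness favours.

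The yolk gene vit-1 gave 9397, 941 and 461 on mutant replicates 1, 2 and 3, against 3251, 1753 and 1671 on those of N2, a spread that did not follow vit-5, which was low on mutant replicate 3 alone.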
